A study of Mus musculus with 9 samples.

Results

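The transcripts described here are those of the oxidative phosphorylation machinery in E14 cells, a mouse embryonic stem cell line, after treatment with 5-Iodotubercidin (5-ITu). The genes were chosen by symbol: those starting with Ndufa, Ndufb, Ndufc, Ndufs, Ndufv, Uqcr, Cox4 to Cox8 or Atp5, together with Sdha to Sdhd and Cyc1. Of 8625 genes with a probe set of their own among the deposited values, 74 fit this rule, and for each the brightest probe set was used. They comprised 35 genes of complex I (6 of them Ndufaf assembly factors, which help to build the complex but are not part of it), 4 of complex II, 8 of complex III, 14 of complex IV and 13 of complex V. The cells were cultured on gelatine in serum and LIF and received for 26 h the solvent DMSO, 0.1 μM 5-ITu or 1.0 μM 5-ITu, an adenosine analogue used as an inhibitor of the kinase Haspin. All groups were of a single untransfected line, with 3 biological replicates and 3 Affymetrix Mouse Gene 2.0 ST arrays per condition. Values are log2 signals, normalized by the authors with RMA.

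The respiratory chain of the inner mitochondrial membrane passes electrons from NADH, through complex I, and from succinate, through complex II, to ubiquinone, and from there through complex III and cytochrome c to complex IV, which reduces oxygen. Complexes I, III and IV pump protons out of the matrix, and complex V, the ATP synthase, uses the returning protons to make ATP. Embryonic stem cells in serum and LIF run both this pathway and a high rate of glycolysis. The complexes are built from nuclear and mitochondrial gene products. Of the 13 subunits encoded in mitochondrial DNA 0 had a probe set of their own among the deposited values, so all values concern nuclear genes.

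Of the 10476 deposited probe sets, 9911 lay above the stated background signal, 8.46 on the log2 scale, on at least 3 of the 9 arrays and were tested with limma. Of the 74 genes, 73 passed this filter and 66 were above background on all 9 arrays. The exception was Ndufb10, a subunit of the distal membrane arm of complex I, whose log2 signals were 8.26 to 8.47 in DMSO, 8.32 to 8.38 at 0.1 μM and 8.37 to 8.42 at 1.0 μM, and which was above background on 1 array. Per array, 9469 to 9780 probe sets were above background. The median SD between replicate arrays over the tested oxidative phosphorylation genes was 0.0845 in DMSO, 0.0366 at 0.1 μM and 0.0737 at 1.0 μM, close to the values over all tested probe sets (0.0859, 0.0424 and 0.0753). The third array at 1.0 μM was the lowest of its group for 60.3% of the tested oxidative phosphorylation genes (44.1% of all tested probe sets), the second DMSO array for 56.2% (37% of all), and the first array at 0.1 μM for 58.9% (40.1% of all). Of 10 stem cell markers 9 had a probe set, and their summed linear signal was 35727 to 37720 in DMSO, 38067 to 38460 at 0.1 μM and 34731 to 35470 at 1.0 μM. Of 8 fibroblast markers 1, Thy1, had a probe set of its own among the deposited values. The study evaluated only probes above background, and whether an absent gene lacked signal or a probe set was not tested.

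The 1.0 μM arrays were first compared with DMSO. The largest fall was that of Ndufaf3 and the largest rise that of Ndufaf1, both assembly factors of complex I, and most of the other genes did not pass the test. At an adjusted p under 0.05, 4 of 73 rose and 8 fell, that is 16.4%, against 27.7% of all tested probe sets. By direction, 5.48% of the oxidative phosphorylation genes rose, against 13.4% of all tested probe sets, and 11% fell, against 14.3%. The median log2 difference was −0.022, and that over all tested probe sets was −0.0056. The 3 arrays at 1.0 μM lay wholly above the 3 DMSO arrays for 6 genes and wholly below them for 15, and over all tested probe sets this was so for 18.6% and 20%. At an unadjusted p under 0.05 7 genes were higher and 12 lower, against 19.3% and 21.2%. Past a change of 1.5-fold was only Ndufaf3, which fell; 1.92% of all tested probe sets fell that far with an unadjusted p under 0.05. The called genes belonged to complex I and its assembly factors, complex II and complex V. In whole cultures, fewer cells carrying a transcript and less of it per cell cannot be told apart.

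**Figure D1:**
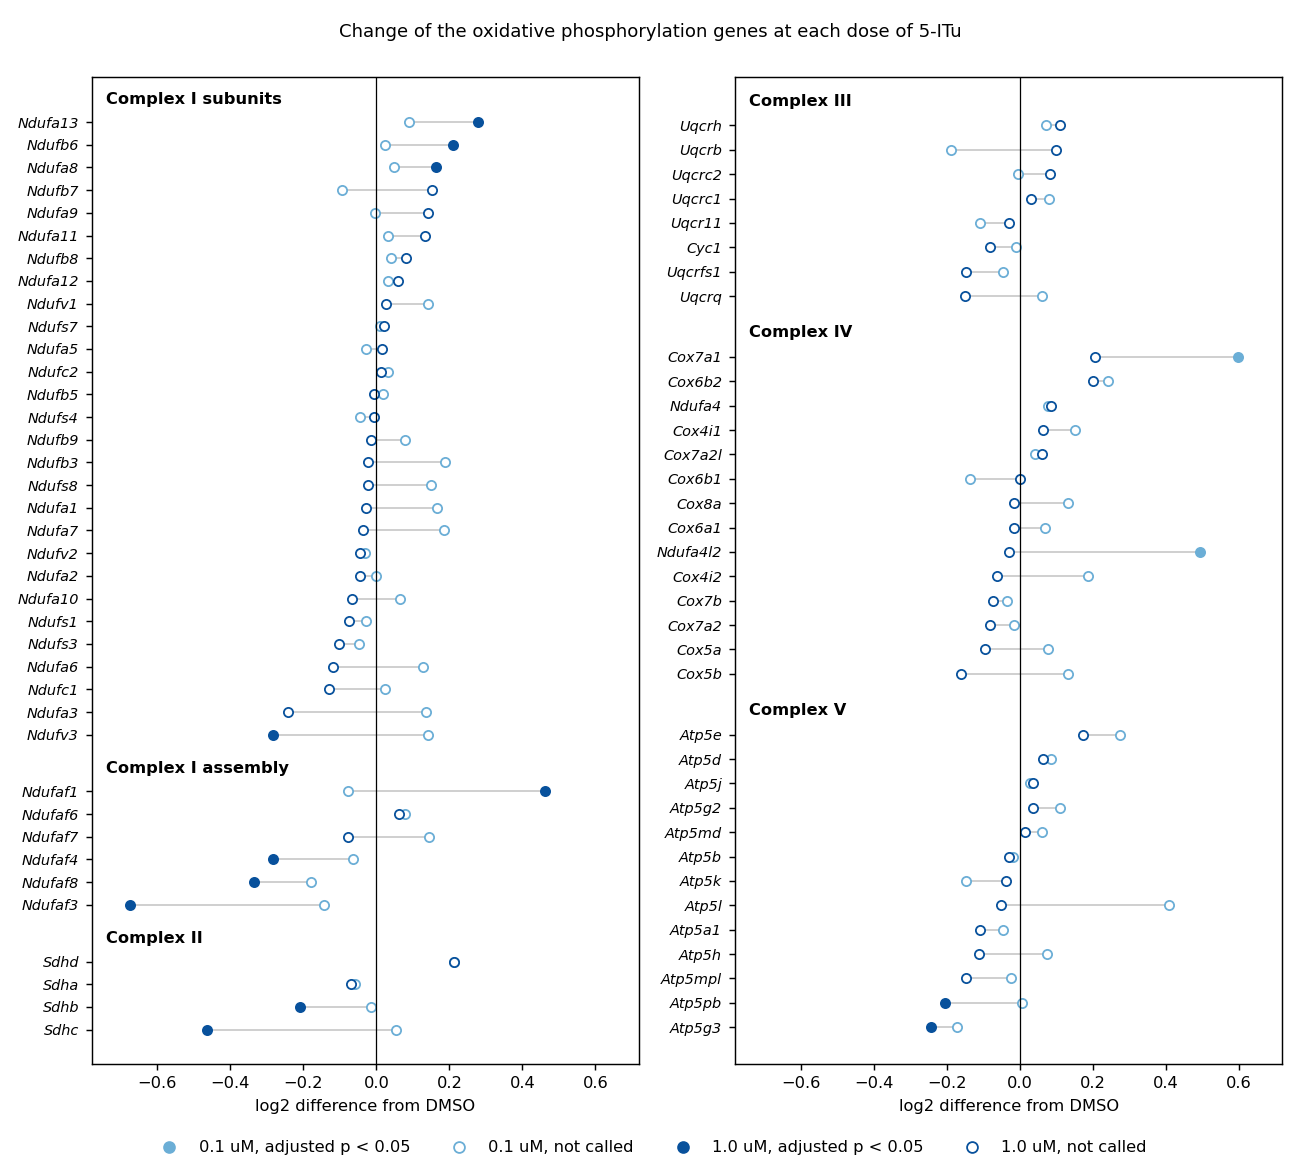
Log2 difference from DMSO (x axis) of each of the 73 tested genes (y axis, by complex), light blue at 0.1 μM and dark blue at 1.0 μM, filled where the adjusted p was under 0.05. At 1.0 μM 12 genes are filled, with Ndufaf3 (−0.68) and Ndufaf1 (0.46) at the ends, and at 0.1 μM only Cox7a1 and Ndufa4l2.

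The widest spread of changes was among the 6 Ndufaf genes, of which 1 rose, 3 fell and 2 were not called. Ndufaf3, which in human cells works with Ndufaf4 on an early assembly intermediate of complex I, had log2 signals of 9.40, 9.40 and 9.25 at 1.0 μM, against 9.93, 10.10 and 10.04 in DMSO. The groups were well apart, and its level at 1.0 μM was 0.626 times that in DMSO (log2 difference −0.68 ± 0.062 SE, adjusted p = 0.000155). Ndufaf4 had 9.12, 9.09 and 8.98 at 1.0 μM, against 9.29, 9.29 and 9.47 in DMSO (−0.28 ± 0.063, adjusted p = 0.00999). Both partners thus fell, without overlap between the arrays.

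Ndufaf8, which in human cells stabilises another assembly factor, Ndufaf5, fell to 8.44, 8.11 and 8.39 at 1.0 μM, against 8.70, 8.62 and 8.63 in DMSO (adjusted p = 0.0182). It passed the filter through the DMSO arrays, where it was high, and would not have passed without them, which favoured such a call. All 3 arrays at 1.0 μM were below the background of 8.46, so that the level is given only as at least 1.14-fold lower: here and below, such a bound sets the mean of the brighter group against the lowest signal above background on each array of the other. Ndufaf1, a member of the complex that assembles the membrane arm of complex I, went the other way. It had 10.21, 10.35 and 9.92 at 1.0 μM, against 9.76, 9.74 and 9.59 in DMSO, a level 1.38 times higher (log2 difference 0.46 ± 0.098, adjusted p = 0.00768). The third array at 1.0 μM was the lowest of its group and still above every DMSO array. Ndufaf3, Ndufaf4, Ndufaf8 and Ndufaf1 kept their calls when any single array was left out.

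Among the 28 tested subunits of complex I, 3 rose, 1 fell and 24 were not called, with a median log2 difference of −0.011. The changes lay in accessory subunits, which surround the catalytic core. Ndufa13, an accessory subunit also known as GRIM-19, had 11.38, 11.33 and 11.18 at 1.0 μM, against 11.03, 11.05 and 10.98 in DMSO (0.28 ± 0.057, adjusted p = 0.00661). Ndufb6, of the distal membrane arm, had 10.99, 11.12 and 11.00 at 1.0 μM, against 10.88, 10.76 and 10.83 in DMSO (0.21 ± 0.053, adjusted p = 0.0171). Ndufa8, next to the membrane arm, had 10.84, 10.87 and 10.75 at 1.0 μM, against 10.73, 10.63 and 10.61 in DMSO (0.16 ± 0.052, adjusted p = 0.0439). In these 3 genes the groups did not overlap, but for Ndufa8 the gap between the nearest arrays was small.

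The complex I subunit that fell was Ndufv3, an accessory subunit of the NADH-binding module. Its log2 signals were 8.96, 8.87 and 8.98 at 1.0 μM, against 9.22, 9.13 and 9.31 in DMSO, with no overlap (−0.28 ± 0.059, adjusted p = 0.00719). The 6 measured core subunits (Ndufv1, Ndufv2, Ndufs1, Ndufs3, Ndufs7 and Ndufs8, grouped after their values were seen), of the arm that passes electrons to ubiquinone, differed by −0.10 to 0.03 on the log2 scale, with 0 called and 0 at an unadjusted p under 0.05. For Ndufs7, which holds the last cluster before ubiquinone, the difference was 0.02 (95% confidence interval −0.10 to 0.14), with 12.88, 12.84 and 12.81 at 1.0 μM, against 12.91, 12.72 and 12.85 in DMSO. Ndufb3, of the distal membrane arm, differed by −0.02 (−0.26 to 0.21), its DMSO arrays being spread from 8.20 to 8.71.

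Succinate dehydrogenase, complex II, is also an enzyme of the citric acid cycle, and its 4 subunits did not move together. Sdhc, a membrane anchor, had log2 signals of 10.34, 10.38 and 10.37 at 1.0 μM, against 10.97, 10.60 and 10.92 in DMSO, so that its level was 0.725 times that in DMSO (−0.46 ± 0.087, adjusted p = 0.00428). The second DMSO array was well below the other two and still above every 1.0 μM array. Sdhb, the iron-sulphur subunit, had 9.58, 9.60 and 9.39 at 1.0 μM, against 9.71, 9.79 and 9.70 in DMSO (−0.21 ± 0.061, adjusted p = 0.0293).

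The other two subunits were not called. Sdhd, the partner of Sdhc in the membrane, had 10.35, 10.27 and 10.14 at 1.0 μM, against 10.20, 9.92 and 10.01 in DMSO (0.21, 95% confidence interval 0.04 to 0.39, adjusted p = 0.0736), with overlapping arrays. Sdha, the flavoprotein that oxidises succinate, had 11.60, 11.58 and 11.55 at 1.0 μM, against 11.65, 11.66 and 11.63 in DMSO (−0.07, −0.16 to 0.02, adjusted p = 0.216).

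Complexes III and IV had 0 called genes at 1.0 μM. Among the 8 tested genes of complex III the log2 differences ran from −0.15 to 0.11, and 1 was lower and 0 were higher at an unadjusted p under 0.05. Uqcrq, a small subunit close to cytochrome b, had 8.40, 8.29 and 8.20 at 1.0 μM, against 8.49, 8.41 and 8.44 in DMSO (adjusted p = 0.0785), with 1 of these 6 arrays above background. Uqcrb, another small subunit, had 12.51, 12.59 and 12.73 at 1.0 μM, against 12.32, 12.77 and 12.44 in DMSO (0.10, 95% confidence interval −0.13 to 0.33).

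Among the 14 genes of complex IV the differences at 1.0 μM ran from −0.16 to 0.21, and at an unadjusted p under 0.05 1 was higher and 1 lower. Cox6a1, the widely expressed form of subunit 6a, had 13.15, 13.18 and 13.09 at 1.0 μM, against 13.22, 13.07 and 13.17 in DMSO (−0.02, 95% confidence interval −0.13 to 0.10). Its groups overlapped.

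In complex V 2 of 13 genes fell and 0 rose. Atp5g3, which encodes the c subunit of the rotating membrane ring, had 10.54, 10.56 and 10.42 at 1.0 μM, against 10.82, 10.59 and 10.84 in DMSO (−0.24 ± 0.069, adjusted p = 0.0279). Atp5pb, subunit b of the stalk that holds the head still, had 11.44, 11.29 and 11.27 at 1.0 μM, against 11.54, 11.55 and 11.53 in DMSO (−0.20 ± 0.052, adjusted p = 0.0175). Neither overlapped with DMSO, though for Atp5g3 the second DMSO array came close.

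The 4 genes of the catalytic head and central stalk of complex V were not called, with differences of −0.11 to 0.17 and 1 lower at an unadjusted p under 0.05. Among them Atp5b, the catalytic beta subunit and a gene that the study used to normalise its quantitative PCR, had 13.48, 13.44 and 13.48 at 1.0 μM, against 13.50, 13.50 and 13.49 in DMSO. Its log2 difference was −0.03 at 1.0 μM (95% confidence interval −0.11 to 0.06) and −0.02 at 0.1 μM (−0.10 to 0.07). Atp5j, coupling factor 6 of the stalk, differed by 0.04 (−0.10 to 0.17) at 1.0 μM.

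**Figure D2:**
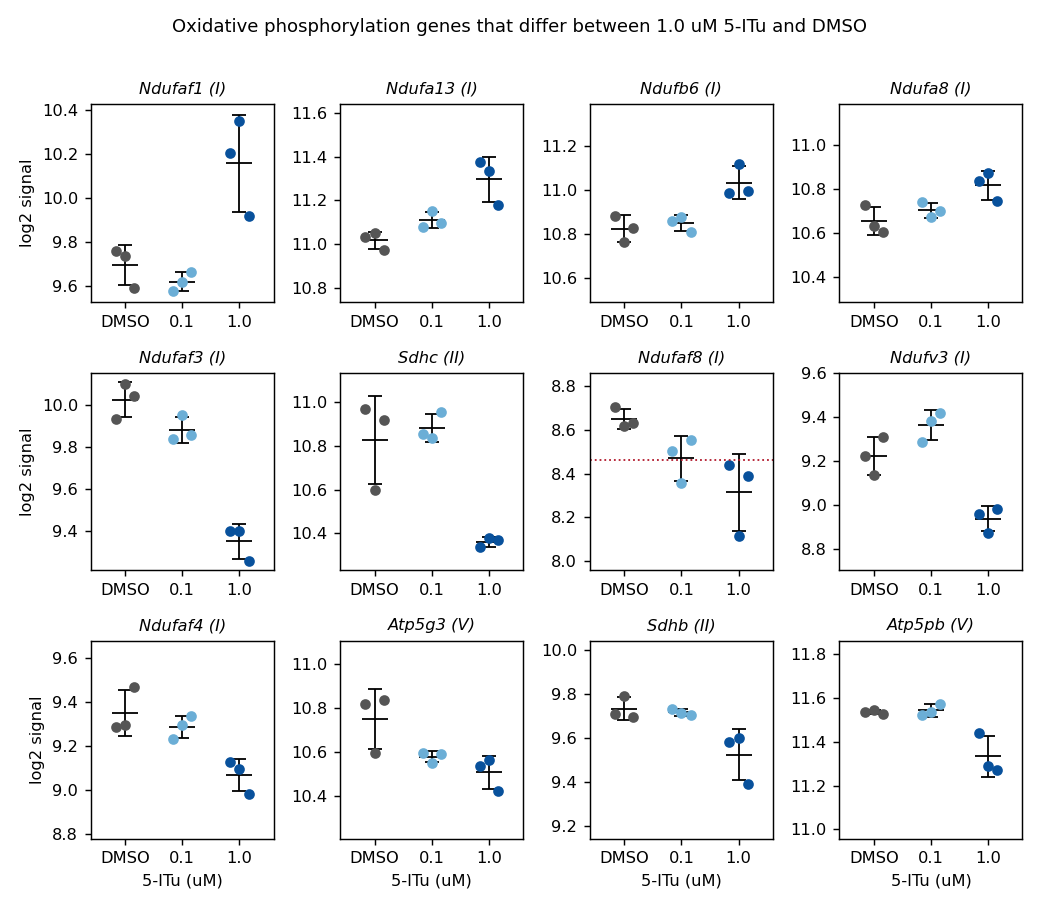
Log2 signal (y axis) on each array of the 12 genes that differed between 1.0 μM 5-ITu and DMSO, with the complex in brackets, by concentration (x axis); points are arrays, bars the mean and SD of 3 arrays, and the dotted line the background of 8.46. The 4 genes that rose stand first and the 8 that fell after them, and in all 12 panels the 1.0 μM arrays lie clear of the DMSO arrays.

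Calls at 1.0 μM were not equally firm. Ndufaf3, Ndufaf1, Ndufaf4, Ndufa13, Ndufv3 and Sdhc passed the threshold whichever single array was left out and under every other alternative at that threshold. Ndufaf8 passed it whichever single array was left out but not in the one-way analysis of variance of the methods after Benjamini-Hochberg adjustment (adjusted p = 0.101), nor did Atp5g3, Sdhb and Ndufa8. Atp5pb, Ndufb6, Atp5g3, Sdhb and Ndufa8 were not called when the 2 groups were fitted alone (adjusted p = 0.0567 to 0.11), and Sdhb not with array weights (adjusted p = 0.0542). Atp5pb and Ndufb6 lost their call without the second 1.0 μM array (adjusted p = 0.0636 and 0.0614). Atp5g3 lost it without the first or the third DMSO array or the first or the third array at 1.0 μM (adjusted p = 0.0509 to 0.0957, differences of −0.32 to −0.20 over the 9 fits without 1 array). Sdhb lost it without the second or the third DMSO array, the first or the third at 0.1 μM, or the third at 1.0 μM (adjusted p = 0.0501 to 0.073, differences of −0.25 to −0.14). Ndufa8 kept it only without the first DMSO array or the third array at 1.0 μM (adjusted p = 0.0638 to 0.139 in the other 7 fits, differences of 0.14 to 0.20). In RefSeq, Sdhc, Ndufa13 and Ndufaf4 overlap other genes (Gm46172, Tssk6 and Gm46848), and whether their probe sets also read these was not tested.

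The lower dose was compared with DMSO next. At 0.1 μM 2 of 73 genes rose and 0 fell, or 2.74%, against 6.23% of all tested probe sets (4.66% higher and 1.56% lower). At an unadjusted p under 0.05 10 were higher and 4 lower, against 14.5% and 10.6% of all tested probe sets. The one-way analysis of variance of the methods tests all 3 groups at once, so it gives no test of 0.1 μM against DMSO alone. Of the genes it called after Benjamini-Hochberg adjustment, 9 had a mean above DMSO at 0.1 μM and 3 a mean below it. The same split over all tested probe sets was not counted, so no low-dose change is read from it. The median log2 difference was 0.041, and over all tested probe sets 0.0015. The 0.1 μM arrays lay wholly above the DMSO arrays for 16 genes and wholly below them for 6, against 17.8% and 15.8% of all tested probe sets. At 0.1 μM the 12 genes called at 1.0 μM differed from DMSO by at most 0.179 in size on the log2 scale and were not called; both comparisons share the DMSO arrays.

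Both genes that rose at 0.1 μM were counted here under complex IV, Ndufa4l2 as a relative of a subunit. Cox7a1, the form of subunit 7a known from heart and skeletal muscle, had log2 signals of 10.22, 10.34 and 10.22 at 0.1 μM, against 9.72, 9.40 and 9.86 in DMSO, a level 1.51 times higher (0.60 ± 0.11, adjusted p = 0.0155). Ndufa4l2, a relative of the complex IV subunit Ndufa4 known for its induction in hypoxia, had 9.10, 9.24 and 9.12 at 0.1 μM, against 8.60, 8.79 and 8.60 in DMSO (0.49 ± 0.090, adjusted p = 0.0151). The groups did not overlap in either gene. Both calls were lost when any of the 3 arrays at 0.1 μM was left out (adjusted p = 0.0534 to 0.0718), with Cox7a1 then at 0.47 to 0.70 and Ndufa4l2 at 0.45 to 0.56 over all fits without 1 array. Ndufa4l2 overlaps Shmt2 in RefSeq.

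Neither gene was called at 1.0 μM. At 1.0 μM Cox7a1 had 9.73, 9.88 and 9.99, which overlapped with DMSO (0.21, 95% confidence interval −0.04 to 0.45). Ndufa4l2 had 8.43, 8.73 and 8.74 at 1.0 μM and also overlapped with DMSO (−0.03, −0.23 to 0.17). A further pair of genes for tissue-restricted forms of complex IV subunits, picked after their values were seen, were also measured. Cox4i2, known from lung, had 8.50, 8.50 and 8.52 at 0.1 μM, against 8.32, 8.27 and 8.37 in DMSO (adjusted p = 0.0724), and Cox6b2, known from testis, had 10.71, 10.64 and 10.69 at 0.1 μM, against 10.56, 10.25 and 10.51 in DMSO (0.24, adjusted p = 0.0809). Both missed the threshold, and in both the 0.1 μM arrays lay above all DMSO arrays. This was not particular to tissue-restricted forms. Of the 14 genes of complex IV, 7 had 0.1 μM arrays wholly above DMSO and 1 wholly below, against 17.8% and 15.8% of all tested probe sets. Among the 7 were Cox4i1 and Cox8a, also named after their values were seen (0.15 and 0.13, not called). For Cox6b2 the 1.0 μM arrays also lay above all DMSO arrays (0.20, limma adjusted p = 0.0718). Cox4i2 was above background on the 0.1 μM arrays alone and was tested through them. Over the 14 genes of complex IV 11 differences were above 0 at 0.1 μM, with a median of 0.10. This was so for 46 of all 73 tested oxidative phosphorylation genes and for 5001 of the 9911 tested probe sets.

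A fibroblast marker, Thy1, was also called at 0.1 μM. It had linear signals of 393 to 429 at 0.1 μM, against 243 to 310 in DMSO, where every array was below background, a level at least 1.18-fold higher (adjusted p = 0.0251). At 1.0 μM it had 296 to 391. It passed the filter through the 0.1 μM arrays, where it was high, and 2 of those at 1.0 μM. The other fibroblast markers were not analysed here, and the part of other cells in the values of Cox7a1 and Ndufa4l2 was not tested.

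The direct comparison of the doses showed more differences than either dose against DMSO. At 1.0 μM 4 of 73 genes were higher and 15 lower than at 0.1 μM, or 26%, against 29.7% of all tested probe sets. The 15 include Cox4i2 and Uqcrq, which passed the filter only through the 0.1 μM arrays, where they were high. By direction, 5.48% were higher, against 12.3% of all tested probe sets, and 20.5% were lower, against 17.4%. At an unadjusted p under 0.05 6 were higher, against 18.2%, and 20 lower, against 23.3%. The median was −0.065, and −0.0046 over all tested probe sets. The 1.0 μM arrays lay wholly below the 0.1 μM arrays for 29 genes and wholly above them for 11, and this was so for 28.1% and 23.6% of all tested probe sets. Over the fits without 1 array the count of lower genes ran from 8 to 19: it was 8 without the third array at 0.1 μM, and 9 without the second array at 0.1 μM or without the second array at 1.0 μM. The share of all tested probe sets was not counted in these fits.

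In complex I, Ndufaf3 (−0.53), Ndufv3 (−0.43) and Ndufaf4 (−0.22) were lower and Ndufaf1 (0.54), Ndufa13 (0.19) and Ndufb6 (0.19) higher than at 0.1 μM. Ndufa6, named after its values were seen, was also lower (−0.25, limma adjusted p = 0.0129). This comparison and that with DMSO share the 1.0 μM arrays. Ndufaf3 had 9.84, 9.95 and 9.86 and Ndufaf1 9.58, 9.62 and 9.66 at 0.1 μM. Ndufb7, an accessory subunit of the distal membrane arm, had 9.82, 9.68 and 9.65 at 1.0 μM, against 9.46, 9.55 and 9.40 at 0.1 μM (0.24 ± 0.065, adjusted p = 0.02), while its DMSO arrays, at 9.66, 9.52 and 9.51, overlapped with both. Ndufa3, an accessory subunit of the membrane arm, had 11.55, 11.55 and 11.61 at 1.0 μM, against 11.96, 11.95 and 11.93 at 0.1 μM (−0.38 ± 0.088, adjusted p = 0.0113). Of its DMSO arrays, 2 lay with the 0.1 μM arrays, at 11.93 and 11.94, and the second, at 11.57, with the 1.0 μM arrays.

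In complex II, Sdhc had 10.85, 10.83 and 10.95 and Sdhb 9.73, 9.72 and 9.70 at 0.1 μM. Both were lower at 1.0 μM than at 0.1 μM (−0.52, adjusted p = 0.00269, and −0.19, adjusted p = 0.0382). At 0.1 μM these subunits differed from DMSO by 0.05 (95% confidence interval −0.14 to 0.25) for Sdhc and by −0.02 (−0.15 to 0.12) for Sdhb. In complex III, Uqcrq was lower at 1.0 μM (adjusted p = 0.022), where every array was below background, by at least 1.03-fold. It passed the filter only through the 0.1 μM arrays, where it was high, which favoured a call of this kind. With quantile normalization this call was lost (adjusted p = 0.182), and Uqcrq overlaps Gdf9 in RefSeq.

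In complex IV 5 of 14 genes were lower at 1.0 μM than at 0.1 μM and 0 were higher (1 at an unadjusted p under 0.05), against 17.4% lower and 12.3% higher of all tested probe sets. Besides Ndufa4l2 (−0.52 ± 0.090, adjusted p = 0.00289) and Cox7a1 (−0.39 ± 0.11, adjusted p = 0.0245), these were Cox5b, Cox4i2 and Cox8a. Cox4i2 had 8.15, 8.28 and 8.34 at 1.0 μM, all below background. It entered the test only through the 0.1 μM arrays, where it was high, so that it had to differ and its call adds no support to the count. Its level was at least 1.03-fold lower (adjusted p = 0.00865), and with quantile normalization the call was lost (adjusted p = 0.0603). Cox5b, a subunit that faces the matrix, had 11.24, 11.26 and 11.23 at 1.0 μM, against 11.50, 11.49 and 11.63 at 0.1 μM (−0.29 ± 0.065, adjusted p = 0.00917). The DMSO arrays of Cox5b, at 11.46, 11.27 and 11.49, also lay above those at 1.0 μM (−0.16, limma adjusted p = 0.0918, not called). Cox8a, a small membrane subunit chosen after its values were seen, had 12.72, 12.72 and 12.75 at 1.0 μM, against 12.87, 12.86 and 12.89 at 0.1 μM (−0.15, adjusted p = 0.0236), and its DMSO arrays were at 12.76, 12.70 and 12.77. In complex V, Atp5l, subunit g of the membrane sector, had 9.47, 9.34 and 9.25 at 1.0 μM, against 9.69, 9.88 and 9.87 at 0.1 μM (−0.46 ± 0.13, adjusted p = 0.0233). Its DMSO arrays were spread from 9.10 to 9.67 and overlapped with the 1.0 μM arrays. Atp5pb was also lower at 1.0 μM than at 0.1 μM (−0.21, limma adjusted p = 0.0149). Of the calls between doses, those of Ndufaf3, Ndufaf1, Ndufv3, Ndufa3, Sdhc, Ndufa4l2 and Cox5b held whichever single array was left out, though in the adjusted one-way analysis of variance Ndufa3 (adjusted p = 0.0755) and Cox5b (adjusted p = 0.052) were not called. Those of Ndufa13, Ndufb6, Ndufb7, Sdhb, Uqcrq, Cox7a1 and Atp5l were each lost without at least 1 of the arrays at 0.1 μM and at least 1 of those at 1.0 μM, with adjusted p of up to 0.114. Altogether 22 of the 73 genes were called in at least 1 comparison, against 40.8% of all tested probe sets, and 51 in none.

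**Figure D3:**
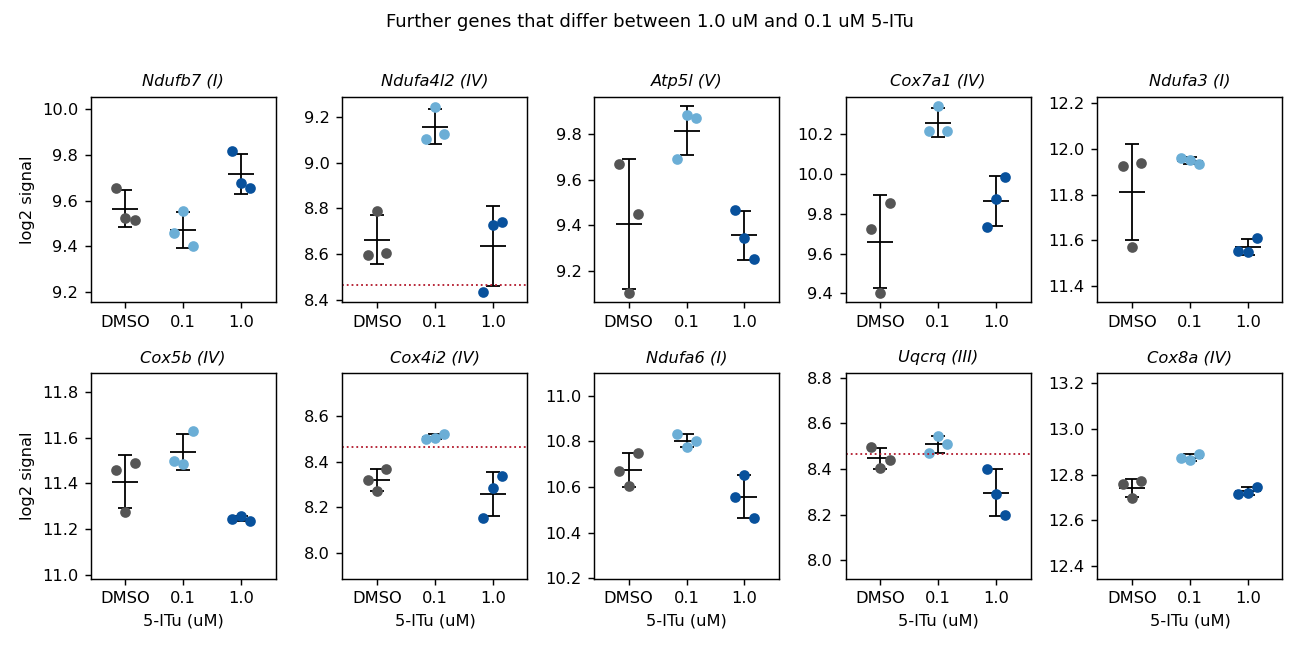
Log2 signal (y axis) by concentration (x axis) of the 10 further genes that were called between 1.0 μM and 0.1 μM 5-ITu but not called between 1.0 μM and DMSO. Points are arrays, bars the mean and SD of 3 arrays, and the dotted line the background of 8.46. In 9 panels the 1.0 μM arrays lie below the 0.1 μM arrays, and in that of Ndufb7 above them.

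Some of the genes have sequence runs in common that the rule did not use. RefSeq promoter windows (GRCm38.p6, 250 bases before to 50 after a gene's start) were at hand for 60 of the 74 genes, 64 windows in all, and for 11 of the 12 genes called at 1.0 μM. The palindrome bound by NRF1, a transcription factor of mitochondrial genes, was in 9.38% of the windows, against 0.971% of all windows and 1.33% of those of protein-coding genes, and its shorter form GCGCATG in 21.9%, against 3.91% and 4.8%. CCGGAAG, read by ETS factors such as GABP, was in 29.7%, against 8.86% and 11.6%, and AAGATGGCG, read by YY1, in 9.38%, against 1.4% and 1.83%. TCAAGGTCA, read by estrogen-related receptors, was in 3.12%, against 0.423% and 0.334%. The E-box CACGTG was in 9.38%, against 7.15% and 7.84%, and TATAAA in 10.9%, against 13.6% and 12.6%. Both strands were searched, each shorter match inside the palindrome was also counted as GCGCATG, and a match is a run of letters, not a bound site.

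Such runs occurred before genes of either direction of change at 1.0 μM. The stretches around a match in each of 7 called genes are shown so that the genes that rose (Ndufaf1, Ndufb6 and Ndufa8) can be set against those that fell, with the match in capitals and the sequence in the direction of transcription.
Ndufaf1 (ETS, chr2:119662835-119662877, minus strand): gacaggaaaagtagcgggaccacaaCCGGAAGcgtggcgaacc
Ndufb6 (ETS, chr4:40279622-40279671, minus strand): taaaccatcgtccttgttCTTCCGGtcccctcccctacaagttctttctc
Ndufa8 (short NRF1, chr2:36049339-36049370, minus strand): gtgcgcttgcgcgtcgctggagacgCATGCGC
Ndufaf4 (NRF1, chr4:24897945-24898004, plus strand): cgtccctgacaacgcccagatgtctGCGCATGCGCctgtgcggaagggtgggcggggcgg
Ndufaf8 (ETS, chr11:120098901-120098933, plus strand): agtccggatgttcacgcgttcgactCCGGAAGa
Sdhb (short NRF1, chr4:140961193-140961249, plus strand): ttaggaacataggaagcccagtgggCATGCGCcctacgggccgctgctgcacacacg
Atp5g3 (ERR, chr2:73911345-73911403, minus strand): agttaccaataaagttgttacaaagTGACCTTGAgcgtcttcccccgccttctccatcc
All 7 stretches lie upstream of the transcription start. They do not show every match in these windows. Ndufb6 also has a short NRF1 run at −77 to −71, and after the start Sdhb has an ETS run and Ndufaf8 a YY1 run. Ndufaf1 and Ndufaf8, which changed in opposite directions, both carry the ETS run within the last bases before the start, and Ndufaf4 is the only called gene with the whole NRF1 palindrome in its window.

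Genes that serve the respiratory chain from outside the rule were compared with DMSO at 1.0 μM. Over all tested probe sets 13.4% rose and 14.3% fell there, and each count below is to be read beside these shares. Of 28 tested assembly factors outside the rule 6 rose and 4 fell, with a median of 0.0045. Coa3, needed for complex IV assembly, fell by 0.68 (adjusted p = 0.00298) and Sdhaf1, which helps to insert the iron-sulphur clusters of Sdhb, by 0.62 (adjusted p = 0.000115), while Tmem70, which assembles the ATP synthase, rose by 0.38 (adjusted p = 0.00237). Tmem70 was also called at 0.1 μM (0.26, adjusted p = 0.0391). Of 15 electron carriers and enzymes of coenzyme Q synthesis 1 rose and 4 fell (median −0.057). Etfb, a subunit of the flavoprotein that delivers electrons from fatty acid oxidation, fell by 0.42, and the coenzyme Q synthesis genes Coq5 and Coq9 fell by 0.18 and 0.16 (adjusted p = 0.0183 and 0.0235).

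Of 18 genes of the citric acid cycle and its entry steps 1 rose and 4 fell (median −0.045), against 13.4% and 14.3% of all tested probe sets. Pcx, pyruvate carboxylase, fell by 0.55, Suclg2, a subunit of succinyl-CoA ligase, by 0.37, and Ogdh, of the oxoglutarate dehydrogenase complex, by 0.24. Of 23 genes of mitochondrial protein import 2 rose and 3 fell, among them Timm21, a part of the inner membrane translocase (0.32), and Tomm70a, an outer membrane receptor, and Pmpca, of the processing peptidase, which fell by 0.17 and 0.16. Of 14 genes for the upkeep and transcription of mitochondrial DNA 1 rose and 1 fell: Polg2, the accessory subunit of the mitochondrial DNA polymerase, rose by 0.29 and Lrpprc, which binds mitochondrial mRNAs, fell by 0.27. Among 12 nuclear regulators of mitochondrial genes 1, Sp1, a general transcription factor, rose (0.18, adjusted p = 0.015) and 0 fell; at an adjusted p of 0.0616 Pprc1, a relative of PGC-1, stood at −0.19. Of 62 mitochondrial ribosomal protein genes 6 rose and 5 fell (median −0.024).

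**Figure D4:**
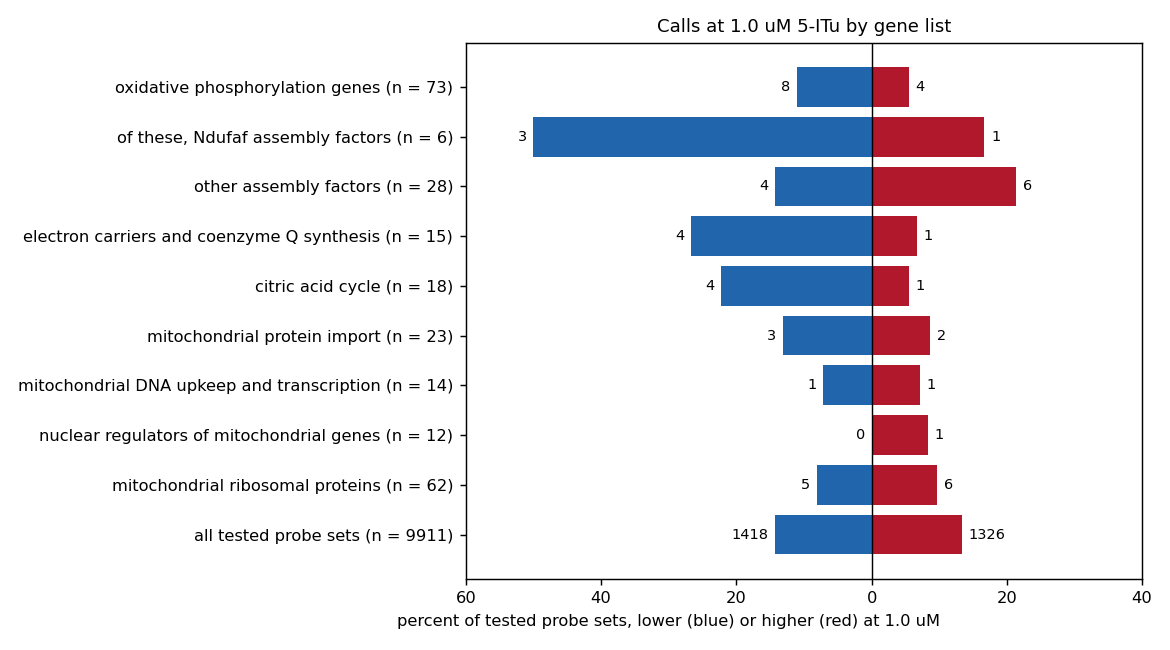
Percent of the tested probe sets of each list (x axis) that were lower (blue, to the left) or higher (red, to the right) at 1.0 μM 5-ITu than in DMSO at an adjusted p under 0.05, with the counts beside the bars. The 73 oxidative phosphorylation genes, with 8 lower and 4 higher, have shorter bars than all 9911 tested probe sets, with 1418 lower and 1326 higher.

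Some related transcripts could be read only jointly. Of 97 protein-coding RefSeq genes whose symbols fit the rule, 23 had no probe set of their own among the deposited values and were not analysed here as single genes. Another 5 probe sets name such a gene together with a near-identical copy and were left out of all counts. For the genes Atp5d and Atp5g2, each with a second probe set, neither probe set was called in any comparison.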

How the data were processed

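Each array carried RNA of a separate biological replicate. Probe signals were turned by the authors into RMA values with Affymetrix Expression Console, and the deposited table gives them as log2 signals, used here unchanged; RMA gives all arrays a common distribution, so differences are relative to it. The precision is limited by 3 arrays per condition. The methods of the study call the replicates biological. The oxidative phosphorylation genes and the lists were chosen with earlier results of these data known. Symbols came from the platform annotation, where 8854 probe sets have 1 symbol, 668 several and 954 none; promoters came from RefSeq (GRCm38.p6).

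A single limma model (version 3.58.1, R 4.3.3; lmFit, contrasts.fit and eBayes) was fitted to the 9 arrays, with Benjamini-Hochberg adjusted p values over the 9911 tested probe sets and a threshold of 0.05. "Rose" and "fell" are used at that threshold. The script was tested on simulated data. Genes were named by a rule: the 8 largest rises and falls called in each comparison, the genes of highest and lowest DMSO signal in each complex, all of complex II, Atp5b, any gene under the filter, and up to 3 genes per other list with the smallest p at 1.0 μM; others are said to be chosen after their values were seen. Alternatives were other filters, a fit of 2 groups, quantile normalization, a block for the replicate number, trend and robust eBayes, array weights, the mean over a gene's probe sets, the one-way analysis of variance of the methods, a stricter threshold and leaving out each array. Python 3.11.15 and matplotlib 3.10.9 drew the figures.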

Additional observations from a re-analysis of the deposited data

Results flagged for a closer look

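The probe set annotated with both Uqcr10, a small subunit of complex III, and its near-identical copy Gm6293 was outside the compared genes, since it names 2 genes. It was 0.32 higher on the log2 scale at 0.1 μM than in DMSO (limma, adjusted p = 0.0479), with log2 signals of 8.84, 8.98 and 8.77 at 0.1 μM, against 8.63, 8.37 and 8.63 in DMSO. The groups did not overlap, and 1 DMSO array was below background.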

How the results depend on the processing

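Of the 29 called differences of named genes 0 changed sign under any alternative, and of the 30 that were not called 14 did so under at least 1. The median at 1.0 μM (−0.022) changed sign without the third array at 1.0 μM (0.0046). Counts of oxidative phosphorylation genes that moved by over 1.5 times were as follows, and the cause was not tested except where fewer arrays or a stricter threshold set it. The share of all tested probe sets called was not counted under any alternative. The counts in this section therefore cannot be read as particular to these genes. With the 2 groups fitted alone 2 rose and 5 fell at 1.0 μM. With array weights 7 rose at 1.0 μM, 9 rose and 2 fell at 0.1 μM, and between the doses 8 were higher and 25 lower. With the filter over all 9 arrays 1 rose at 0.1 μM, since Ndufa4l2 was then not tested. By the one-way analysis of variance at p under 0.05 with a change over 1.5-fold 0 rose and 1 fell at 1.0 μM, 1 rose at 0.1 μM, and 0 were higher and 0 lower between the doses. That analysis tests all 3 groups at once and no single pair, so its counts take their direction from the group means. After its Benjamini-Hochberg adjustment 9 of the called genes had higher and 3 lower means at 0.1 μM than in DMSO. Between the doses 9 had lower means at 1.0 μM. At an adjusted p under 0.01 2 rose and 4 fell at 1.0 μM, 0 rose at 0.1 μM, and 1 was higher and 6 lower between the doses.

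Without each array in turn, 2 to 6 rose and 6 to 10 fell at 1.0 μM, 0 to 3 rose and 0 to 1 fell at 0.1 μM, and 1 to 5 were higher and 8 to 19 lower between the doses. The lowest count of rises at 1.0 μM (2) was without the second 1.0 μM array, and that at 0.1 μM (0) without any of the 0.1 μM arrays; the fall at 0.1 μM (1) appeared without the second DMSO array. Between the doses 1 was higher without the first or the third array at 0.1 μM, and 2 without the second array at 0.1 μM or the first or second at 1.0 μM. The medians ran from −0.034 to 0.0046 at 1.0 μM, 0.014 to 0.074 at 0.1 μM and −0.086 to −0.036 between the doses.

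Whether the replicate numbers pair the arrays was not settled. Correlations of deviations from the group means were −0.023 to 0.51 for same-numbered arrays and −0.444 to 0.257 for differently numbered ones. The largest joined same-numbered DMSO and 1.0 μM arrays, the first (0.51) and the third (0.437). The first DMSO array, however, correlated better with the third 0.1 μM array (0.257) than with the first (0.0882). With the replicate number as a block 5 rose and 8 fell at 1.0 μM, 2 rose and 0 fell at 0.1 μM, and 5 were higher and 15 lower between the doses. Signals near background, as for Ndufaf8, Uqcrq and Cox4i2, limit how far small differences can be read.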
